A study of Mus musculus with 12 samples.

Results

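The transcripts of 9 chemokine receptors, Cxcr2, Cxcr3, Cxcr4, Cxcr5, Ccr1, Ccr7, Ccr9, Ackr1 and Ackr3, were followed in RNA-seq libraries of mouse bone endothelial cells (BECs). These members were chosen by name, as receptors that marrow cells carry, with earlier results of these data known. They are 9 of the 37620 genes in the count table. BECs are the cells that line the blood vessels of bone. They were sorted by their surface endomucin, a protein of bone capillaries, from c57/Bl6 mice, an inbred laboratory strain. The mice were females of 2 weeks, males of 2 weeks, females of 65 weeks or males of 65 weeks, with 3 libraries in each of these 4 groups and no treatment or transgene named in the labels. The study asked how BECs differ between the sexes and with age. The labels give the tibia as the source, while the study's methods describe femurs as well for some isolations, and those methods state that samples were chosen by RNA quality. The labels do not say whether the 3 libraries of a group came from separate mice, so p-values here measure the spread between libraries, which may be technical.

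Chemokines are small secreted proteins that guide moving cells, and their conventional receptors signal through G proteins of the Gi family. In marrow, Cxcr4 and its ligand Cxcl12 hold blood cells and their precursors near stromal and vascular niches, while Cxcr2 favours the release of neutrophils. Cxcr5 and Ccr7 guide lymphocytes within lymphoid organs. Atypical receptors (Ackr) bind chemokines without the usual G protein signal and take them up or carry them across cells. Ackr3 shares Cxcl12 with Cxcr4, and Ackr1 is known on venular endothelium and on erythroid cells.

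Levels are given as CPM, counts of a gene scaled to the total count of its library, as mean ± s.d. with n = 3 libraries. Libraries held 26044743 to 44569600 counts, and the lowest value of any member was 7 counts, for Ackr3. Differences are log2 fold changes from edgeR's quasi-likelihood test, which was run over all genes, with Benjamini-Hochberg adjusted p-values and a threshold of 0.05. The endothelial label was compared with 12 endothelial markers. Their summed level was 2677 to 4953 CPM in the 6 libraries of 2 weeks and 181 to 289 CPM in the 6 of 65 weeks, and all 12 fell with age in both sexes. Emcn, the gene of endomucin, was at 147 ± 32.9 CPM in young and 5.004 ± 2.10 CPM in old females, and at 197 ± 38.0 and 5.64 ± 0.971 CPM in males. Markers of neutrophils, B cells and erythroid cells were present at both ages, at summed levels of up to 26410, 1522 and 11420 CPM. In bulk libraries such as these, fewer cells of a type and less RNA per cell cannot be told apart. One library stood apart from the others of its group: in males of 65 weeks, the summed B cell markers were 497, 397 and 1522 CPM in replicates 1, 2 and 3. Several results that rest on that replicate 3 are given with and without it.

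Upstream sequence was read for the members from the RefSeq promoter table (GRCm38.p6), which held 7 of the 9, without entries for Cxcr5 and Ccr7. The 2 receptors of Cxcl12 are printed because both hold the letters TATAAA, searched on both strands, though at different distances from the start. Cxcr2, the receptor whose age difference was furthest apart between the sexes, is printed with an ETS motif (GGAAGT, or ACTTCC on the other strand). Ackr1 is printed with a GATA motif (AGATAA, or TTATCT on the other strand). The first 3 sequences are the 100 bases before the RefSeq start of transcription, at chr1:90203880-90203979 (plus strand), chr1:128592300-128592399 (minus strand) and chr1:74153894-74153993 (plus strand). The fourth is a stretch of 30 bases around the site after the start, at chr1:173333461-173333490 (minus strand). All read 5′ to 3′ in the direction of the gene, and capitals mark the motif.
Ackr3: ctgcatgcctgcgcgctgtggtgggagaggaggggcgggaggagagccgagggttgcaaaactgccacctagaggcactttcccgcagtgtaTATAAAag
Cxcr4: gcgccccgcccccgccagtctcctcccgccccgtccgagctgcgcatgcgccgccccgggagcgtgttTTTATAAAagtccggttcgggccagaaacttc
Cxcr2: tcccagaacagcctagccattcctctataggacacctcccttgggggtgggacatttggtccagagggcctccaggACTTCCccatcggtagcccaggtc
Ackr1: agccctgggcacTTATCTtggagccacagc
In windows of 250 bases before to 50 after the start, TATAAA was found in 2 of the 7 member promoters and in 13.6% of 32851 promoters. It began 8 bases before the start in Ackr3 and 30 bases before it in Cxcr4, where its other-strand form TTTATA overlapped it. GGAAGT was found in Cxcr2 and Cxcr3, against 23.8% of all promoters, and AGATAA in Ackr1 alone of the 7, against 11.2%. A match is a description of the letters and was not read as a bound site.

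Between 2 and 65 weeks, 6 of the 9 receptors rose and 2 fell, in females and in males alike, and Ccr9 was not called in either sex. The background was high: edgeR called 59.7% of 15120 genes in females (30.2% higher, 29.5% lower) and 55.5% of 14959 genes in males (27% higher, 28.5% lower). The median log2 fold change of the 9 receptors was 1.26 in females and 1.34 in males, beside 0.01 and 0.01 over all genes tested. Because the members were chosen with earlier results of these data known, this contrast is a description and not a test. The 8 receptors called had no overlap between the libraries of the 2 ages, as had 69.2% of genes in females (27.6% higher, 41.6% lower) and 65.4% in males (26% higher, 39.4% lower). The same direction was called in both sexes for these 8 receptors, and for 47.2% of 14775 genes tested in both (22.7% higher, 24.5% lower). The female and male age comparisons use separate libraries, whereas each sex comparison shares its libraries with both.

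**Figure D1:**
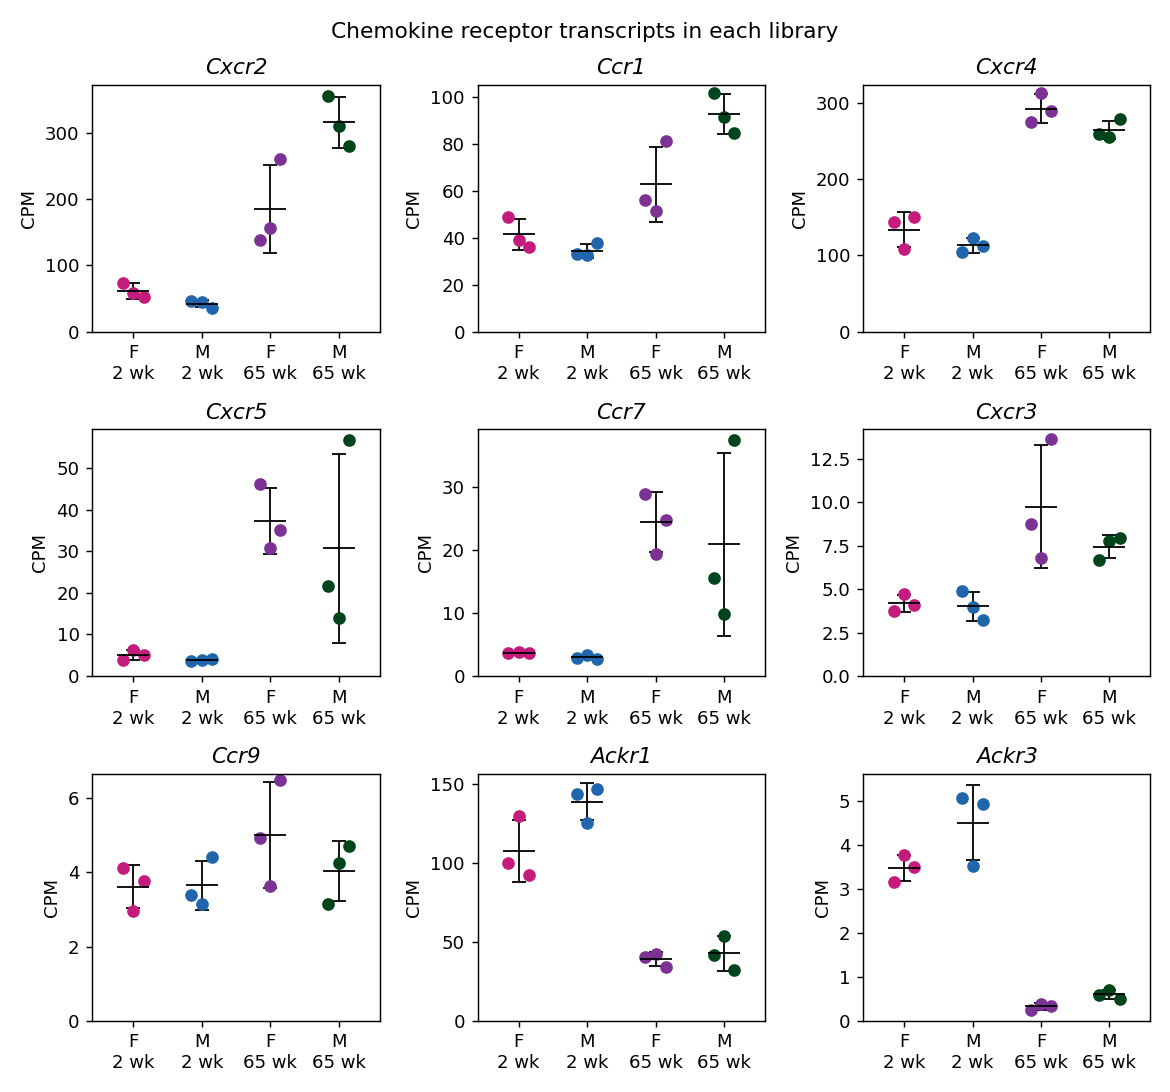
CPM (vertical axis, linear from 0) of each of the 9 receptors in the 12 libraries, by group (F, female; M, male; wk, weeks). Points are libraries, and bars are mean ± s.d. (n = 3): 6 receptors lie higher and Ackr1 and Ackr3 lower at 65 weeks, and Ccr9 overlaps between the ages.

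Cxcr2, the neutrophil receptor for chemokines with an ELR motif, rose in both sexes and further in males, a difference that edgeR did not call and that is tested with the sexes. The gene (ENSMUSG00000026180) lies on chromosome 1 from 74193150 to 74200405 on the plus strand (GRCm39). It was measured at 74.3, 58.1 and 51.9 CPM in females of 2 weeks and at 138, 157 and 261 CPM in females of 65 weeks. Males had 45.6, 44.9 and 36.2 CPM at 2 weeks and 357, 312 and 281 CPM at 65 weeks. Every library of 65 weeks lay above every library of 2 weeks, and the males were the lowest group at 2 weeks and the highest at 65 weeks. With age its log2 fold change was 1.73 (s.e. 0.24, adjusted p = 0.000504) in females and 3.03 (s.e. 0.16, adjusted p = 5.58e-06) in males. The summed level of 11 neutrophil markers moved with it, 2.45-fold up in females (10 of 11 genes called higher) and 5.58-fold up in males (11 of 11). For each 1000 CPM of these markers, females had 8.96 to 11.5 CPM of Cxcr2 at 2 weeks and 11.1 to 16.0 CPM at 65 weeks, which overlapped. Males had 8.71 to 11.2 CPM at 2 weeks and 11.95 to 15.7 CPM at 65 weeks, without overlap. Of the marker sum in females of 65 weeks, 14210 CPM, S100a8 held 2846 and S100a9 4188 CPM. Single markers rose on the log2 scale by 0.21 (Mpo) to 2.20 (Ltf) in females. In males the same genes gave 1.82 and 3.51. Cxcr2 lay within both ranges, so its ratio depends on the marker used.

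Ccr1, a receptor of inflammatory CC chemokines on monocytes and neutrophils, showed a smaller rise of the same form. It lies on chromosome 9 from 123762161 to 123768734 on the minus strand. Its level was 41.4 ± 6.70 CPM at 2 weeks and 62.7 ± 16.1 CPM at 65 weeks in females, and 34.3 ± 2.85 and 92.5 ± 8.46 CPM in males. In females the highest library of 2 weeks (49.0 CPM) came close to the lowest of 65 weeks (51.2 CPM), while in males the ages were wide apart. Its log2 fold change was 0.73 (s.e. 0.19, adjusted p = 0.00954) in females and 1.55 (s.e. 0.12, adjusted p = 3.36e-05) in males. Its mean level rose 1.51-fold in females and 2.7-fold in males. The summed monocyte and macrophage markers rose less than Ccr1 in males (1.40-fold, 5 of 8 called higher) and more in females (2.10-fold, 8 of 8). The summed neutrophil markers rose more than Ccr1 in both sexes, 2.45-fold in females and 5.58-fold in males. What part the changed marker levels had in the rises of Cxcr2 and Ccr1 was not tested.

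Cxcr4 and Ackr3, which share the ligand Cxcl12, moved in opposite directions. Cxcr4 (chromosome 1, 128515936 to 128520044, minus strand) was measured at 143, 108 and 150 CPM in females of 2 weeks and 275, 313 and 289 CPM in females of 65 weeks. In males it was at 104, 123 and 112 CPM at 2 weeks and 259, 255 and 278 CPM at 65 weeks. The libraries of 65 weeks were close to each other in both sexes and all lay above those of 2 weeks. This gave a log2 fold change of 1.26 (s.e. 0.14, adjusted p = 0.000157) in females and 1.34 (s.e. 0.10, adjusted p = 2.38e-05) in males. Against the neutrophil markers, Cxcr4 stood at 20.9 to 28.1 CPM per 1000 CPM of these markers at 2 weeks. The ratio was 17.8 to 22.6 in females of 65 weeks and 9.78 to 15.5 in males of 65 weeks, the lowest of the 4 groups. The sum of these markers had risen 2.45-fold in females and 5.58-fold in males, more than Cxcr4. Other blood cells that carry Cxcr4 were not set beside it, and the part of any cell type in its rise was not tested.

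Ackr3 (chromosome 1, 90131689 to 90144473, plus strand) scavenges Cxcl12. In females it fell from 3.16, 3.77 and 3.50 CPM to 0.241, 0.381 and 0.341 CPM, the latter from 7 to 13 counts per library. In males it fell from 5.07, 3.52 and 4.93 CPM to 0.586, 0.704 and 0.499 CPM, the latter from 13 to 19 counts. No library of 65 weeks came near the lowest of 2 weeks. For Ackr3 the log2 fold change was -3.28 (s.e. 0.30, adjusted p = 4.44e-05) in females and -2.79 (s.e. 0.29, adjusted p = 0.000137) in males. There were 20.5 to 45.3 counts of Cxcr4 for each count of Ackr3 at 2 weeks and 362 to 1142 at 65 weeks, so the balance between these receptors differed in every library. The summed endothelial markers fell 14.5-fold in females and 20.8-fold in males. Ackr3 per 1000 CPM of them was 0.818 to 1.31 CPM at 2 weeks and 0.989 to 3.89 CPM at 65 weeks. The ages overlapped in females, while in males they were apart, at 0.902 to 1.04 and 1.89 to 3.89 CPM. Stromal and osteoblast markers fell as well, 25.6-fold in females and 24.7-fold in males (6 of 6 genes lower in each). Ackr3 per 1000 CPM of these was 0.766 to 1.45 CPM at 2 weeks and 1.91 to 5.67 CPM at 65 weeks, without overlap. On the log2 scale, single stromal and osteoblast markers changed by -7.57 (Bglap) to -1.96 (Kitl) in females. In males the same genes gave -7.04 and -2.01. Endothelial markers changed by -5.50 (Cdh5) to -1.47 (Erg) in females, and by -5.74 and -1.60 in males. Ackr3 lay within all of these ranges, so both ratios depend on the marker used. The part of either cell type in the fall of Ackr3 was not tested.

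Cxcl12 itself, named here after its values were seen because it is the ligand of this pair, fell. It was at 5484 ± 1266 CPM in young and 980 ± 142 CPM in old females, and at 6262 ± 609 and 1151 ± 281 CPM in males. Its log2 fold change was -2.34 (s.e. 0.17, adjusted p = 1.74e-05) and -2.33 (s.e. 0.20, adjusted p = 4.60e-05). With age, the signalling receptor was higher and its ligand and its scavenger were lower, in both sexes.

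**Figure D2:**
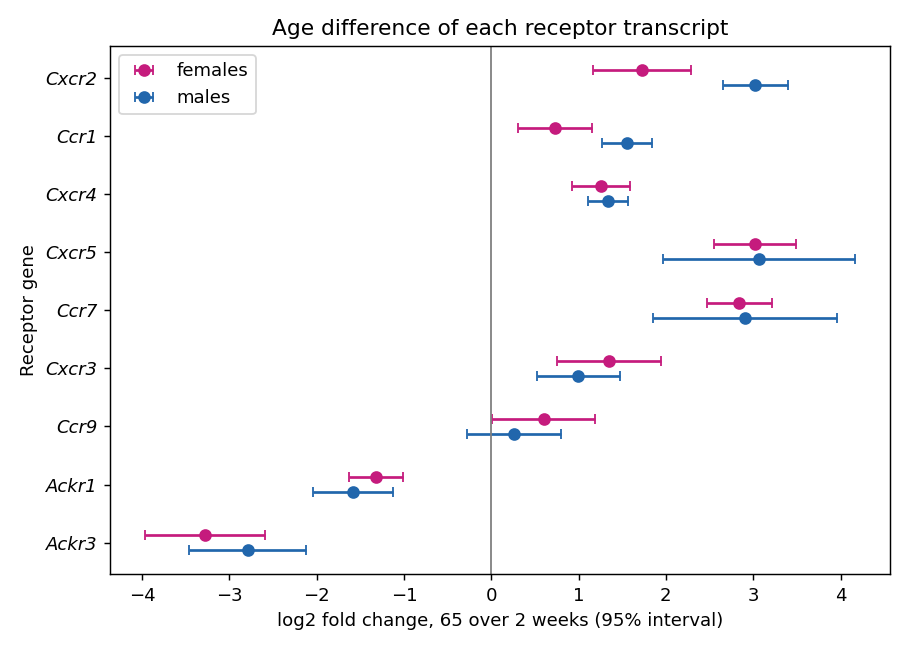
Log2 fold change of each receptor, 65 over 2 weeks (horizontal axis), from edgeR in females and in males. Points are estimates and bars 95% intervals: 6 receptors lie to the right of 0 in both sexes, Ackr1 and Ackr3 to the left, and the male intervals of Cxcr5 and Ccr7 are wide.

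Cxcr5 and Ccr7 had the steepest rises in females. Cxcr5, the B cell receptor for Cxcl13, lies on chromosome 9 from 44423083 to 44473174 on the minus strand. It overlaps Bcl9l (mean 28.2 CPM) on the other strand, and since the sources do not state whether strand was used in counting, its count is uncertain. It was measured at 3.92, 6.23 and 5.04 CPM in females of 2 weeks and 46.2, 30.8 and 35.1 CPM in females of 65 weeks, and in males at 3.75, 3.78 and 4.18 CPM against 21.6, 14.0 and 56.6 CPM. All libraries of 2 weeks were low and alike, and the old male libraries were spread widely, with replicate 3 above every female. Age gave it a log2 fold change of 3.02 (s.e. 0.20, adjusted p = 1.14e-05) in females and 3.07 (s.e. 0.47, adjusted p = 0.00109) in males. Without replicate 3 of the males of 65 weeks it was 2.32 in males (adjusted p = 6.29e-05).

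Ccr7, which brings lymphocytes and dendritic cells to lymph nodes along Ccl19 and Ccl21, lies on chromosome 11 from 99035022 to 99045911 on the minus strand. Its values were 3.73, 3.80 and 3.66 CPM in females of 2 weeks and 29.0, 19.5 and 24.8 CPM in females of 65 weeks, and in males 2.87, 3.33 and 2.697 CPM against 15.6, 9.82 and 37.4 CPM. The same old male library was the highest. The log2 fold change was 2.84 (s.e. 0.16, adjusted p = 5.39e-06) in females and 2.91 (s.e. 0.45, adjusted p = 0.00114) in males. Without replicate 3 it was 2.22 in males (adjusted p = 0.000148).

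The profiles of Cxcr5 and Ccr7 were the closest of any pair of members. The measure was the root mean square, over the 12 libraries, of the difference between centred log2(CPM + 0.1) values, which was 0.187 for this pair and 0.344 for the next (Cxcr3 and Cxcr4). There were 1.05 to 1.64 counts of Cxcr5 per count of Ccr7 at 2 weeks and 1.39 to 1.60 at 65 weeks, a ratio that hardly moved although both transcripts rose. The 8 B cell markers, among them Ms4a1 and Cd79a, were all called higher in both sexes, and their summed level was 3.56-fold up in females and 3.596-fold up in males. Without replicate 3 of the males of 65 weeks the male value was 1.995-fold, an alternative chosen after seeing the data. Cxcr5 was at 15.8 to 23.0 CPM per 1000 CPM of these markers at 2 weeks and at 35.2 to 43.4 at 65 weeks, and Ccr7 at 11.7 to 15.03 and 23.0 to 31.3. Per summed B cell marker RNA, each of the 6 old libraries thus held more of both receptors than any young library. Single markers rose on the log2 scale by 1.53 (Cd79b) to 3.93 (Cr2) in females and by 1.29 (Cd79b) to 4.86 (Cr2) in males. Cd22, at 3.07 and 3.04, rose about as much as Cxcr5, so these ratios depend on the marker used. Of the markers, Cr2 and Fcer2a, known from mature B cells, were at 0.989 ± 0.1004 and 4.40 ± 0.111 CPM in young females and at 13.8 ± 3.28 and 21.0 ± 2.37 CPM in old ones. Young males had 0.565 ± 0.0848 and 2.79 ± 0.0629 CPM, and old males 15.5 ± 8.33 and 30.3 ± 11.1 CPM. The part of B cell numbers or maturity in these rises was not tested.

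**Figure D3:**
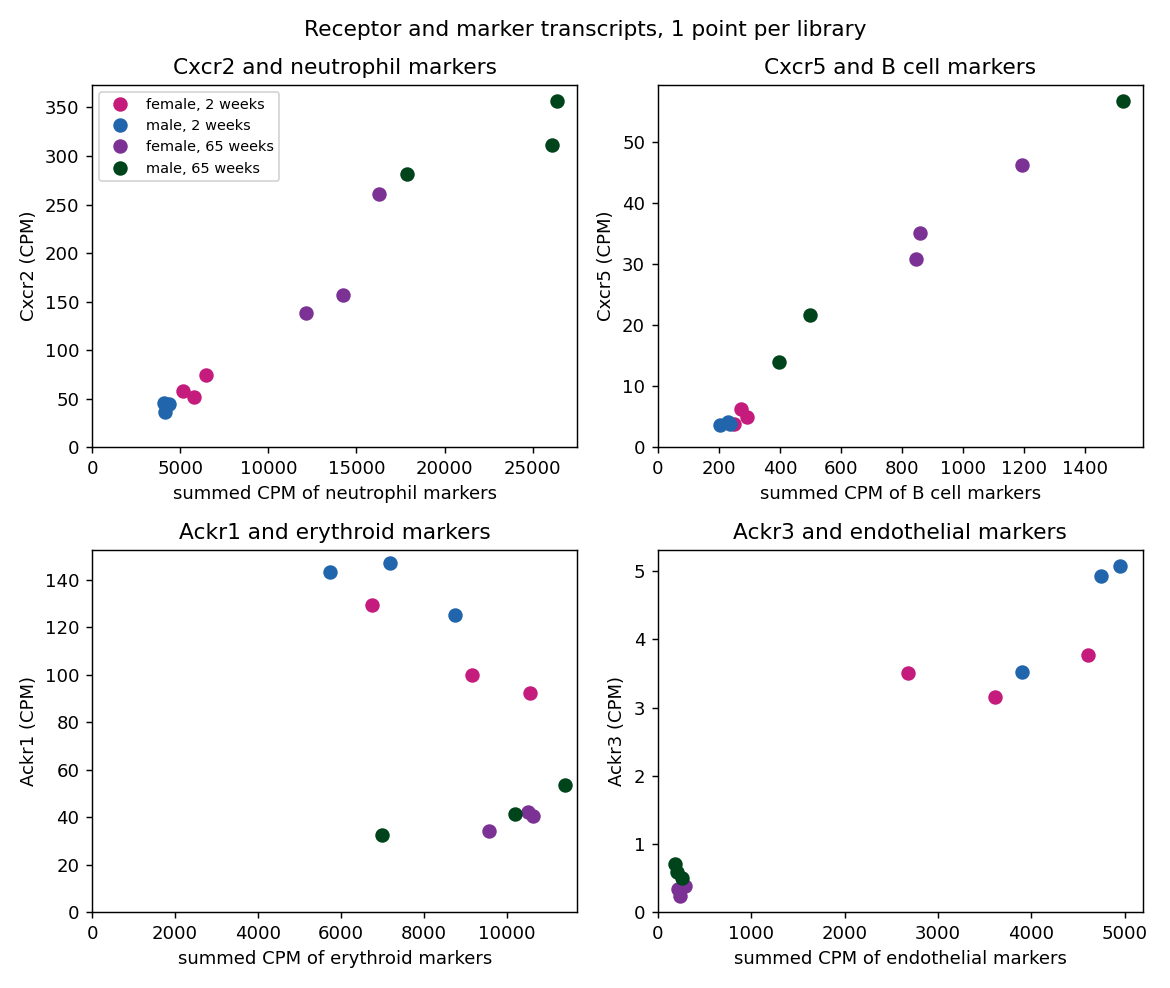
CPM of a receptor (vertical axes) against the summed CPM of a marker list (horizontal axes), 1 point per library. The old libraries with the most neutrophil or B cell marker RNA had the most Cxcr2 or Cxcr5, Ackr1 fell at similar erythroid levels, and Ackr3 and endothelial markers were low in the same 6 libraries of 65 weeks.

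Cxcr3, a receptor of T and NK cells for the interferon-induced ligands Cxcl9 and Cxcl10, rose modestly. It lies on chromosome X from 100775141 to 100777875 on the minus strand. Its level was 4.18 ± 0.486 CPM at 2 weeks and 9.73 ± 3.53 CPM at 65 weeks in females, and 4.02 ± 0.838 and 7.44 ± 0.678 CPM in males, without overlap between ages. Its log2 fold change was 1.35 (s.e. 0.26, adjusted p = 0.00245) in females and 1.00 (s.e. 0.21, adjusted p = 0.00449) in males. Set against 8 T and NK cell markers, it had overlapping ranges at the 2 ages, 5.13 to 7.47 CPM per 100 CPM of them at 2 weeks and 3.50 to 6.62 at 65 weeks, and those markers were called higher for 8 of 8 in females and 6 of 8 in males. Most of that marker sum was Cd4, at 47.1 of 62.9 CPM in females of 2 weeks and 121 of 156 CPM in females of 65 weeks. The ratio therefore mostly followed 1 gene. On the log2 scale, single markers rose by 0.77 (Nkg7) to 2.76 (Cd3g) in females and by 0.60 (Klrb1c) to 3.13 (Cd3g) in males. The part of T and NK cells in the rise of Cxcr3 was not tested.

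Ccr9, the receptor for Ccl25 that directs lymphocytes to thymus and gut and also marks plasmacytoid dendritic cells, was the member without a called difference. It lies on chromosome 9 from 123507181 to 123613395 on the plus strand. It was measured at 3.61 ± 0.585 and 5.01 ± 1.43 CPM in females and at 3.65 ± 0.662 and 4.04 ± 0.810 CPM in males of 2 and 65 weeks, and the libraries overlapped. The log2 fold change was 0.60 (95% interval 0.01 to 1.19, adjusted p = 0.0757) in females and 0.26 (95% interval -0.28 to 0.80, adjusted p = 0.366) in males. Without replicate 2 of the females of 65 weeks, Ccr9 was called higher in females (log2 fold change 0.78, adjusted p = 0.0282). In GENCODE M39 the gene overlaps Lztfl1, Slc6a20a and a pseudogene on the other strand, so its count is uncertain in the same way as that of Cxcr5. The summed dendritic cell markers were 1.38-fold up in females and 1.32-fold up in males, with 3 of 9 genes called higher and 1 lower in females and 4 higher and 3 lower in males.

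Ackr1, the atypical receptor that binds many inflammatory chemokines, fell less steeply than Ackr3. It lies on chromosome 1 from 173159453 to 173161317 on the minus strand and overlaps Cadm3 on the same strand, so reads could be split between these genes. It was measured at 99.9, 129 and 92.4 CPM in females of 2 weeks and 40.6, 42.4 and 34.2 CPM in females of 65 weeks. Males had 144, 125 and 147 CPM at 2 weeks and 41.4, 53.8 and 32.3 CPM at 65 weeks. The ages were apart in both sexes. For Ackr1 the log2 fold change was -1.32 (s.e. 0.13, adjusted p = 8.39e-05) in females and -1.58 (s.e. 0.20, adjusted p = 0.000366) in males. The sum of 7 erythroid markers was 1.16-fold up in females and 1.32-fold up in males (1 of 7 and 2 of 7 called higher), and Ackr1 per 1000 CPM of them went from 8.74 to 25.0 CPM at 2 weeks down to 3.57 to 4.71 CPM at 65 weeks. Per 1000 CPM of endothelial markers, Ackr1 instead went up, from 27.6 to 34.5 CPM at 2 weeks to 122 to 297 CPM at 65 weeks. Single endothelial markers fell by different amounts on the log2 scale, from -5.50 for Cdh5 to -1.47 for Erg in females. In males the same genes gave -5.74 and -1.60. By its estimates Ackr1 fell less than each of the 12 markers in both sexes, and Erg was the nearest of them. The part of either cell type in the fall of Ackr1 was not tested.

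All 4 Ackr genes measured were lower at 65 weeks in both sexes, beside 24.5% of 14775 genes tested in both. This covers the genes of that name only. Ccrl2, a related receptor, was called higher in females and males (log2 fold change 1.26 and 1.37). Ackr4, a scavenger of Ccl19, Ccl21 and Ccl25, fell, with 40.7 ± 6.42 CPM in young and 4.44 ± 1.83 CPM in old females and 47.3 ± 2.02 and 6.66 ± 1.43 CPM in males (log2 fold change -3.05, s.e. 0.29, adjusted p = 5.66e-05, and -2.72, s.e. 0.15, adjusted p = 7.38e-06). Ackr2, a scavenger of inflammatory CC chemokines, had a log2 fold change of -3.34 (s.e. 0.42, adjusted p = 0.000266) in females and -3.04 (s.e. 0.80, adjusted p = 0.0137) in males. Without replicate 3 of the males of 65 weeks, whose 8.72 CPM stood against 0.842 and 0.741 CPM in the others, the male value was -5.09 (adjusted p = 2.13e-06).

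Of the 16 other receptors listed, 14 were tested in females, of which 11 rose and 2 fell, with a median log2 fold change of 1.28. In males 13 were tested, of which 7 rose and 2 fell, with a median of 0.70. The 2 that fell were Ackr2 and Ackr4. Over all genes tested, 30.2% were called higher and 29.5% lower in females, and 27% and 28.5% in males. The largest rises called in both sexes were those of Ccr6, Cxcr6 and Cxcr1. Ccr6, which B cells and some T cells carry, went from 0.390 ± 0.0592 to 7.08 ± 1.5 CPM in females (log2 fold change 4.30, s.e. 0.27, adjusted p = 8.73e-06). In males Ccr6 went from 0.258 ± 0.0601 to 5.88 ± 5.27 CPM (log2 fold change 4.57, s.e. 0.71, adjusted p = 0.00112), and without replicate 3 the value was 3.59. Cxcr6, carried by some T and NK cells, rose by 2.60 and 2.48 on the log2 scale in females and males (adjusted p = 0.000694 and 0.00186), at levels of at most 2.65 CPM. Cxcr1, like Cxcr2 a neutrophil receptor, rose by 2.64 and 2.44 (adjusted p = 0.00512 and 0.0011), and by 1.91 in females without replicate 3 of the females of 65 weeks.

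**Figure D4:**
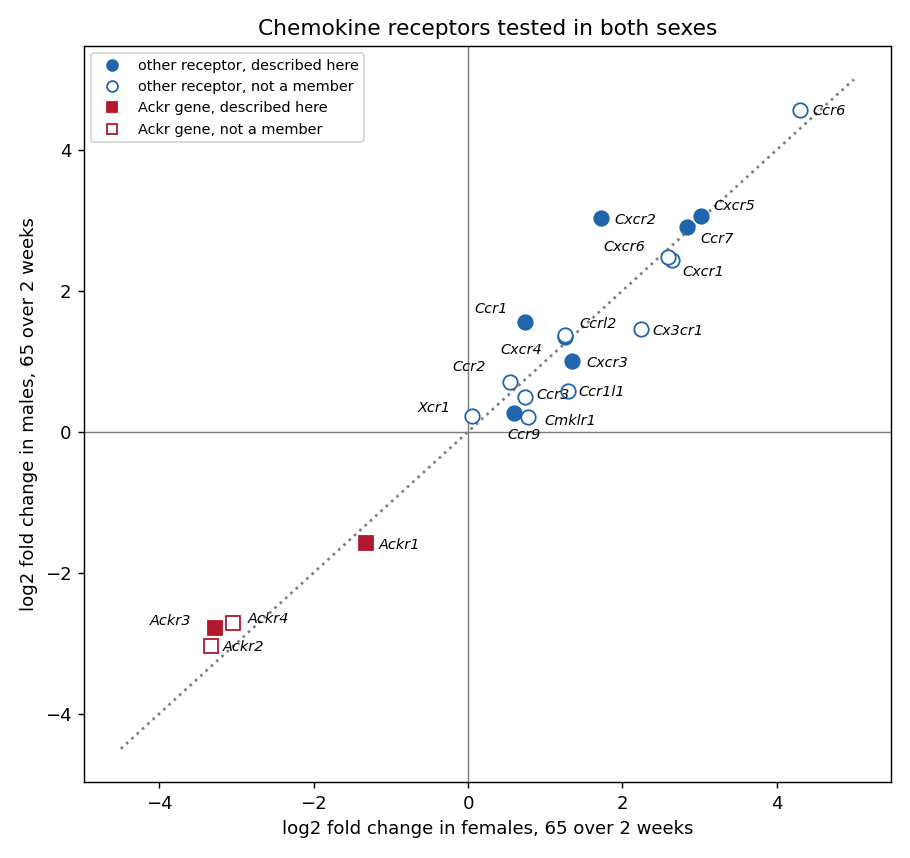
Log2 fold change, 65 over 2 weeks, in females (horizontal axis) and males (vertical axis) for 21 chemokine and related receptors tested in both sexes. Squares are Ackr genes, filled symbols the 9 receptors described, and the dotted line marks equal change: the 4 squares lie below 0 on both axes, and Cxcr2 and Ccr1 lie above the line.

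Among ligands, 28 of 38 listed were tested in each sex. Of these, 16 rose and 6 fell in females and 12 rose and 8 fell in males. Over all genes, 30.2% were called higher and 29.5% lower in females, and 27% and 28.5% in males. Cxcl2, a ligand of Cxcr2, had at most 3 counts in any library of 2 weeks and 1.31 ± 0.558 CPM in females and 1.66 ± 0.506 CPM in males of 65 weeks, which was at least 16.0-fold and 22.5-fold higher than a floor of 3 counts per library. Other ligands of Cxcr2 in the list were not set beside the receptor. Ccl4, an inflammatory CC chemokine, rose by 2.58 and 3.77 on the log2 scale in females and males (adjusted p = 0.000167 and 8.71e-05). Ccl8 rose by 5.03 and 3.68 (adjusted p = 4.95e-06 and 0.00146), the latter 2.78 without replicate 3 of the males of 65 weeks. Ppbp and Pf4, the platelet chemokines, and Cx3cl1, which endothelium makes, fell in both sexes, with log2 fold changes in females of -3.09, -2.27 and -3.14 (adjusted p = 2.91e-05, 9.15e-05 and 5.19e-06). In males they were -3.82, -2.83 and -3.13 (adjusted p = 0.00137, 0.000211 and 9.28e-06). That of Ppbp was -4.57 without replicate 2 of the males of 65 weeks. Ppbp was at 684 to 1179 CPM in the libraries of 2 weeks and 20.4 to 118 CPM in those of 65 weeks.

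Some other ligands of the members were named after their values were seen. Cxcl9 and Cxcl10, which bind Cxcr3, rose by 2.04 and 1.09 in females (adjusted p = 0.000263 and 0.00358) and by 1.14 and 1.16 in males (adjusted p = 0.00927 and 0.0196). The male call of Cxcl10 was lost without replicate 1 (adjusted p = 0.0589) or replicate 3 (adjusted p = 0.0573) of the males of 2 weeks. Cxcl13, which binds Cxcr5, went from 0.294 ± 0.0972 to 4.67 ± 5.95 CPM in females (log2 fold change 4.11, s.e. 1.01, adjusted p = 0.00841). Without replicate 3 of the females of 65 weeks this was 2.21. In males Cxcl13 had a log2 fold change of 1.78 (adjusted p = 0.0511), which was 2.24 and called without replicate 2 of the males of 65 weeks (adjusted p = 0.00353). Ccl25, the ligand of Ccr9, was at most 1.19 CPM and was not called in females (log2 fold change -0.55, adjusted p = 0.291) or males (-0.04, adjusted p = 0.941). Ccl19, which binds Ccr7, was under 1 CPM in every library, with log2 fold changes of -0.20 in females (adjusted p = 0.705) and -1.32 in males (adjusted p = 0.0376), and the latter call was lost under several settings.

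Of 30 genes that act below the receptors, 19 rose and 6 fell in females, and of 29 tested in males 17 rose and 6 fell. The median log2 fold change of these genes was 0.73 in females and 0.71 in males. The shares over all genes were 30.2% higher and 29.5% lower in females, and 27% and 28.5% in males. Dock2, which couples chemokine receptors to Rac in leukocytes, rose by 1.61 on the log2 scale in females, with 119 ± 8.11 and 332 ± 7.97 CPM (adjusted p = 3.62e-06), and by 1.58 in males, with 105 ± 6.84 and 292 ± 76.5 CPM (adjusted p = 0.000123). Pik3r5, an adaptor of the phosphoinositide 3-kinase that G proteins switch on, rose by 2.13 and 2.30 on the log2 scale in females and males (adjusted p = 1.25e-05 and 1.09e-05). Rgs1, which ends Gi signals, rose by 2.98 and 2.23 (adjusted p = 2.07e-05 and 0.00264). The male value of Rgs1 was 1.71 to 2.52 over fits that left out 1 library. Within its family Rgs2, Rgs14 and Rgs19 also rose in both sexes, by 1.05, 1.08 and 0.69 in females (adjusted p = 0.000404, 0.000393 and 0.000225) and by 0.94, 1.78 and 0.89 in males (adjusted p = 0.000627, 1.11e-05 and 8.75e-05). Rgs13 rose in females, by 2.06 (adjusted p = 0.00784), and was not tested in males. Rgs10, Rgs16 and Rgs18 fell in both sexes, with Rgs10 at -0.44 and -0.47 (adjusted p = 0.00233 and 0.0143), Rgs16 at -2.56 and -3.02 (adjusted p = 0.00501 and 0.00242) and Rgs18 at -0.78 and -1.16 (adjusted p = 0.000648 and 0.00169). Leaving out replicate 1 of the females or replicate 3 of the males of 65 weeks took the value of Rgs16 to -3.25 and -3.95. Gnai1, a Gi alpha subunit, fell by 2.25 on the log2 scale in females and by 1.81 in males (adjusted p = 0.000324 and 0.000237). The other Gi alpha subunits, Gnai2 and Gnai3, were not called, at 0.14 and 0.18 in females (adjusted p = 0.164 and 0.0786) and 0.24 and 0.05 in males (adjusted p = 0.0778 and 0.642).

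The order of the members was read from CPM per kb of exon, with exon lengths from GENCODE M39, which may not be the annotation that was counted. At 2 weeks Ackr1 and Cxcr4 were on top, at 76.3 ± 14.0 and 73.4 ± 12.6 in females, which did not differ beyond their spread, and at 98.7 ± 8.33 and 62.0 ± 5.30 in males, which were apart. Cxcr2 and Ccr1 followed, at 20.2 ± 3.79 and 14.6 ± 2.36 in females and 13.9 ± 1.73 and 12.1 ± 1.00 in males, neighbours within or near their spread. Cxcr3, Ccr7 and Cxcr5 had 1.17 to 2.42, and Ackr3 and Ccr9 had 0.342 to 0.556. At 65 weeks Cxcr4 led, at 160 ± 10.5 in females and 145 ± 6.69 in males, and Cxcr2 was next at 60.8 ± 21.6 and 104 ± 12.6. Ackr1 and Ccr1 then lay within their spread of each other, at 27.8 ± 3.07 and 22.1 ± 5.66 in females and 30.3 ± 7.67 and 32.6 ± 2.98 in males. Ccr7 and Cxcr5 came next and were not apart in either sex, at 12.3 ± 2.40 and 11.2 ± 2.38 in females and 10.5 ± 7.34 and 9.22 ± 6.83 in males. Without replicate 3 of the males of 65 weeks the male means were 6.39 and 5.33, and in replicate 2 Cxcr5 (4.19) lay below Cxcr3 (4.47). Cxcr3 was at 5.62 ± 2.04 in females and 4.30 ± 0.392 in males, and Ackr3 was the lowest, at 0.0396 ± 0.00892 and 0.0736 ± 0.0127. The level of Ccr9 per kb is uncertain, since its exon length of 10583 bases covers long transcripts that overlap other genes.

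Between males and females of the same age, edgeR called none of the 9 receptors, at 2 weeks (0.0332% of 15081 genes called) or at 65 weeks (0.042% of 14287). At an unadjusted p under 0.05 there were 5 members at 2 weeks, beside 17.8% of genes, and 2 at 65 weeks, beside 10.4%. At 2 weeks the libraries of Cxcr2 and Ccr7 did not overlap, both lower in males, as was the case for 21.7% of genes (11.8% lower, 9.97% higher). At 65 weeks those of Cxcr2, Ccr1 and Ackr3 did not overlap, all higher in males, beside 15.5% of genes (9.32% higher, 6.16% lower). For Ccr7 at 2 weeks the male-over-female log2 fold change was -0.34 (95% interval -0.65 to -0.03, adjusted p = 0.261). Cxcr4 had -0.26 (95% interval -0.60 to 0.08, adjusted p = 0.354) at 2 weeks and -0.16 (95% interval -0.39 to 0.07, adjusted p = 0.664) at 65 weeks, the narrowest interval of the 9 at that age. Ackr3 at 65 weeks had 0.87 (95% interval -0.34 to 2.08, adjusted p = 0.645). Cxcr5 at 65 weeks had -0.32 (95% interval -1.30 to 0.65, adjusted p = 0.856). Without replicate 3 of the males, Cxcr5 was called lower in males (-1.05, adjusted p = 0.044), in a fit that called 830 of 14700 genes. That replicate had the highest B cell marker sum of its group.

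Cxcr2 differed between sexes in opposite directions at the 2 ages, with a male-over-female log2 fold change of -0.56 (s.e. 0.15, adjusted p = 0.213) at 2 weeks and 0.77 (s.e. 0.24, adjusted p = 0.302) at 65 weeks. The difference between these, the interaction of sex and age, was 1.30 (s.e. 0.31, unadjusted p = 0.0013, adjusted p = 0.142), and edgeR called 0 members and 0.00635% of 15747 genes. DESeq2, run as an alternative, called Cxcr2 in all of these, at 2 weeks (adjusted p = 0.0334), at 65 weeks (adjusted p = 0.0488) and in the interaction (adjusted p = 0.00809). Over all genes it called 447 of 13911, 398 of 14255 and 394 of 15112. Without replicate 3 of the males of 65 weeks, edgeR called the interaction too (1.43, adjusted p = 0.0338), in a fit that called 750 of 16089 genes. Neutrophil markers moved in the same way, with all 11 at an unadjusted p under 0.05 in the interaction and a median of 1.19, and their part in the pattern of Cxcr2 was not tested. The second member at an unadjusted p under 0.05, beside 11.9% of genes, was Ccr1, with an interaction of 0.82 (s.e. 0.24, adjusted p = 0.216).

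For each member the protein-coding genes with the nearest profile over the 12 libraries were sought among 12380 genes, by the measure given above for Cxcr5 and Ccr7. The nearest to Cxcr4 were Mbp (0.0924), Cdkn1b (0.102) and Ttc7 (0.109), the closest matches of any member. Cxcr2 was nearest to Nlrp12 (0.118), Arg2 (0.139) and Il36g (0.161), and Ccr1 to Bst1 (0.162), Mgam (0.168) and Pgd (0.17). Cxcr5 and Ccr7 had the same 3 neighbours in another order, Gm8369, Gpr174 and H2-Ob, at 0.128 to 0.203 for Cxcr5 and 0.142 to 0.213 for Ccr7. Ackr3 was nearest to Smtn (0.142), Vegfc (0.186) and Mamld1 (0.198), and Ackr1 to Ipo11 (0.145), Qsox1 (0.147) and Poglut2 (0.149). Cxcr3 had the most distant neighbours, Crebl2 (0.223), Ccdc88a (0.23) and Nectin4 (0.231), and Ccr9 was nearest to Nemp2 (0.183), Aven (0.198) and Ankra2 (0.198). These distances are descriptions over libraries that fall into 2 ages, and any gene with a like age difference is near.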

How the data were processed

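RNA of endomucin-sorted BECs was sequenced with paired reads. The authors deposited a table of raw counts per Ensembl gene, not normalised. The submitters' processing notes name TopHat2, HTSeq and the mm9 genome, whereas the study's methods name STAR, featureCounts and GRCm39; which applies to these counts was not resolved, and strand and multi-mapping settings are not given in the sources used here. The label names polyA RNA and the kit total RNA.

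Groups followed the age and sex labels. Gene names, positions and exon lengths came from GENCODE M39 (GRCm39) by Ensembl ID; 31052 of 37620 IDs matched, with 99.287% of counts. CPM used library totals. edgeR 4.0.16 (R 4.3.3) used filterByExpr (minimum count 10), TMM scaling and quasi-likelihood tests, with Benjamini-Hochberg adjustment over all genes tested. Ages were compared within sex and sexes within age (6 libraries each), and the interaction on all 12. The F statistic gave the standard errors. Scripts were tested on simulated data. All 9 members passed the filter in every comparison. Replicates differed by more than sampling noise (chi-square per degree of freedom 25.0 to 95.6). A count of 3 was the floor, for counting error only.

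Members and lists were chosen with earlier results of these data known. Named beyond members were the 3 largest rises and falls per list called in both sexes, and the 3 nearest profiles among genes of no list with a mean of at least 1 CPM. Ccl21a and Ccl28 had no match. Alternatives were DESeq2 1.42.0, RLE scaling, library totals, no filter beyond 1 count, 1 model of all 12 libraries, leaving out each library and blocking on replicate number. One listed receptor is counted with its list but is not reported here.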

Additional observations from a re-analysis of the deposited data

Results flagged for a closer look

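Cxcr2 was singled out because the sex difference changed direction with age. At 2 weeks all 3 male libraries (36.2 to 45.6 CPM) lay below all 3 female libraries (51.9 to 74.3 CPM), and at 65 weeks all 3 male libraries (281 to 357 CPM) lay above all 3 female libraries (138 to 261 CPM). The interaction of sex and age was 1.301 on the log2 scale (95% interval 0.62 to 1.98). It was tested and not called by edgeR (adjusted p = 0.142), while DESeq2 called it (adjusted p = 0.00809), among 394 of 15112 genes. The summed neutrophil markers had the same order of groups, with means of 5791 CPM in females and 4209 CPM in males of 2 weeks and 14210 and 23460 CPM at 65 weeks. Their part in the difference was not tested.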

How the results depend on the processing

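Under every alternative the 9 receptors gave 6 higher and 2 lower with age in each sex, except that Ccr9 was also called in females in 1 fit that left out a library, so that 8 to 9 members were called over these fits in females and 8 to 8 in males. Library totals in place of TMM shifted the median log2 fold change of all genes by -0.135 in females and -0.115 in males, and the share of calls that were higher from 50.6% to 40.2% and from 48.7% to 40.4%. The sex comparisons depended on the tool. DESeq2 called 1 member (Cxcr2) at 2 weeks, 1 at 65 weeks and 1 in the interaction. In all it called 447 of 13911, 398 of 14255 and 394 of 15112 genes, where edgeR called 5, 6 and 1. With all 12 libraries in 1 model edgeR called 8 genes at 2 weeks and 254 at 65 weeks, with library totals 10 at 65 weeks, and with genes of at least 1 count 105 at 65 weeks and 7 in the interaction. Leaving out 1 library gave 5 to 11 genes at 2 weeks, 5 to 830 at 65 weeks and 0 to 750 in the interaction, and 0 to 0, 0 to 1 and 0 to 1 members. The values 830 (of 14700 genes) and 750 (of 16089) came without replicate 3 of the males of 65 weeks, as did both members called. The causes were not tested.

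The values that changed sign were all uncalled in the full fit. Ccr9 at 2 weeks was 0.00893 with library totals and 0.0288 with 12 libraries in 1 model. Leaving out 1 library, the sex difference ranged at 2 weeks from -0.168 to 0.0933 for Ccr9 and -0.227 to 0.0602 for Cxcr3, and at 65 weeks from -1.05 to 0.0275 for Cxcr5, -0.92 to 0.0824 for Ccr7 and -0.0889 to 0.299 for Ackr1. The interaction ranged from -0.0125 to 0.209 for Cxcr4, -0.656 to 0.386 for Cxcr5 and -0.573 to 0.395 for Ccr7, and the age difference from -0.641 to 0.0616 for Ccl19 in females and -0.29 to 0.149 for Ccl25 in males. The male call of Ccl19 was lost with DESeq2 (adjusted p = 0.0537), without the filter (0.0622), with the block (0.101) and in 5 of 6 fits without a library. Cxcl13 in males was called by DESeq2 (adjusted p = 0.0344).

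Same-numbered libraries of different groups did not deviate together (1 of 18 pairs with a correlation over 0.1, range -0.355 to 0.14, and 1 of 12 libraries correlating best with its own number). The replicate block therefore joins libraries that share only a number. With it, 0 genes were called in the interaction, where Cxcr5 was at -0.0571 and Ccr7 at -0.0349. Depth limits Ackr3 at 65 weeks, at 7 to 19 counts.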
